A study of Mus musculus with 4 samples.

Results

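Interferon-stimulated genes (ISGs) are the antiviral and immune genes that cells switch on in response to interferon. A list of 41 mouse ISGs was examined in mouse embryonic fibroblasts (MEFs) labelled as knockouts of cyclin G1 or of cyclin G2. A gene was included where a gene probe of the array carried its name in the scanner files, and it was read by its brightest probe. Of the 41 genes, 38 had such a probe and together had 62 of the 41174 gene probes on the array. Of these 38 genes, 21 had 1 probe and 17 had more than 1. The names Irf9, Dhx58 and Xaf1 were not on the array. Irf9 and Dhx58 were found under the older names Isgf3g and D11Lgp2e and are described apart from the 38 genes.

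Type I interferons, such as interferon beta, bind a receptor made of Ifnar1 and Ifnar2, whose kinases Jak1 and Tyk2 phosphorylate STAT proteins, among them Stat2. With Irf9 these form a complex that binds the interferon-stimulated response element (ISRE) in the promoters of ISGs. Interferon gamma binds Ifngr1 and Ifngr2, and signals through a STAT dimer that binds the gamma-activated site (GAS). Fibroblasts express both receptors, make interferon beta after viral infection, and hold many ISGs at a low level without added interferon.

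The data were 4 arrays of 2 colours in 2 comparisons. MEFs of the genotype CycG1-/- (G1KO) were compared with CycG1+/+ (WT) MEFs, and CycG2-/- (G2KO) MEFs with CycG2+/+ (WT) MEFs, so that no WT culture was shared. The cells came from mid-gestation embryos of the C57BL/6J background and were harvested in logarithmic growth without interferon or another treatment named in the labels, although the source name of the G2 pair reads C57BL/7J. In G1KO all protein-coding exons of Ccng1 were replaced by a selection cassette, and the part of Ccng2 deleted in G2KO is not given in the sources used here. Each comparison had 1 knockout and 1 WT culture, hybridised together on 2 arrays with the dyes Cy5 and Cy3 exchanged. There were no biological replicates, so no test between genotypes was possible, no p-value is given, and every ± gives the SD of a dye-swap pair, a technical spread. How many embryos or animals each culture came from is not given in the sources used here.

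Values are log2 ratios of knockout over WT RNA, where a positive ratio is higher in the knockout. A gene entered a comparison where at least 1 genotype was well above background on both arrays, and was called where its ratio was at least 1 in size (2-fold) in the same direction on both arrays. The targeted gene Ccng1 had a ratio of -6.67 ± 0.13 in G1KO. In the other pair the ratio of Ccng2 at its probe was 0.28 and -0.10 on the individual arrays, with a mean of 0.086 ± 0.27, and Ccng1 was higher there by 2.67 ± 0.029. Whether the Ccng2 probe lies within the deleted part is not given, so that RNA is called the RNA labelled G2KO throughout. Xist was higher in both knockouts, by 7.54 and 7.24, and Eif2s3y on the Y chromosome was at least 82.4-fold and 51.1-fold lower, so the sex of the cells and the genotype cannot be told apart in either comparison. Of 10 fibroblast markers, 10 were well above background in each of the 4 cultures. Of 12 leukocyte markers, 6 were well above background on both arrays in the WT of the G1 pair and 5 in G1KO. In the G2 pair 5 were so in the WT and 4 in the RNA labelled G2KO. Ptprc, Itgam, Adgre1 and Aif1 were not well above background in any culture. Csf1r and Fcgr1 were well above background on at least 1 array in both cultures of the G1 pair and on no array in the G2 pair. Mpeg1 was so only in the WT of the G1 pair. Of the 12, 6 entered the G1KO comparison and 5 the G2KO comparison, and 0 of these were called, beside the shares for all probes given below.

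RefSeq promoter windows, which run from 250 bases before to 50 bases after each gene's start on build GRCm38.p6, were given for 29 of the 41 genes. The core of the ISRE was searched as GAAANNGAAA and the GAS as TTCNNNGAA, where N is any base, on both strands and allowing overlaps. The ISRE core was present in 14 of the 29 genes (48.3%), against 3.99% of all 27025 genes with a window. The GAS letters were present in 10 of the 29 (34.5%), against 9.55% of all genes. Among the genes called in either comparison, 5 of 9 with a window had an ISRE core (55.6%), and among those not called 9 of 18 did (50%). The stretches before the start site are shown for those 5 genes, since they are the called genes whose window holds the core. Capitals mark the ISRE core, which is written in reverse complement where it lies on the other strand.

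Ifit1, chr19:34640760-34640838, plus strand: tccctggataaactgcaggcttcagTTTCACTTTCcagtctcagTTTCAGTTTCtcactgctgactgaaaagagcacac
Ifit3, chr19:34583348-34583441, plus strand: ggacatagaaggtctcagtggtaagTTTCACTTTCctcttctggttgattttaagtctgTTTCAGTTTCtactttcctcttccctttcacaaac
Gbp2, chr3:142620579-142620638, plus strand: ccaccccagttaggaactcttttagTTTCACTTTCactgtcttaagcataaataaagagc
Igtp, chr11:58199497-58199555, plus strand: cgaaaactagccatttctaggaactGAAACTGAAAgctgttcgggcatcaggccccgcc
Ifi205, chr1:174031855-174031914, minus strand: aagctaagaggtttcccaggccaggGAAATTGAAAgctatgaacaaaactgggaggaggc

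Ifit1 and Ifit3 each hold 2 cores, which begin 104 and 85 bases before the start in Ifit1 and 156 and 122 bases before it in Ifit3. The core of Gbp2 begins 59 bases before the start and that of Igtp 34 bases before it. Igtp also holds the GAS letters, 45 bases before the start. Ifi205 holds 1 core 134 bases before the start and another that begins 23 bases after it. Of the other called genes with a window, Ifi47, Isg20, Oasl2 and Trim25 had no ISRE core in it, and no match says only that these letters are not in this window.

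**Figure D1:**
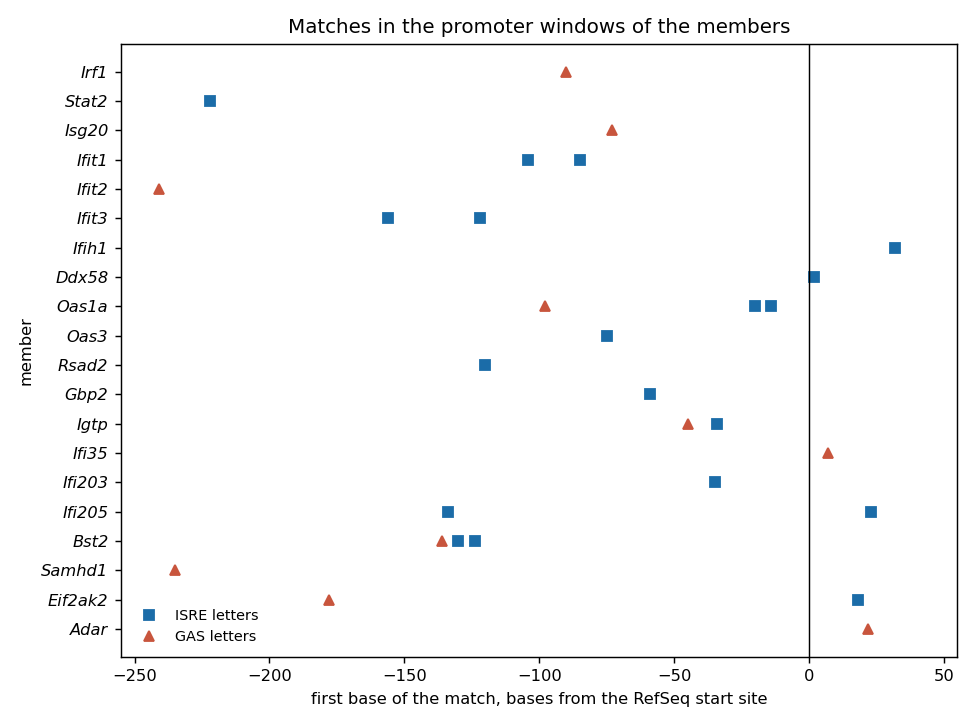
Position of the ISRE letters (blue squares) and GAS letters (red triangles) in the promoter windows of the members that hold either. The x axis is the distance in bases of the first base of the match from the RefSeq start site, from 250 bases before to 50 after it. Most ISRE cores lie before the start, as the 2 of Ifit1 at 104 and 85 bases do, and those of Ifih1, Ddx58, Eif2ak2 and the second of Ifi205 lie after it.

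In G1KO 22 of 33 measured ISGs were below WT on both arrays, and 2 were called. Isg20, an exonuclease that degrades single-stranded RNA, was lower by 3.14-fold, and Gbp2, a guanylate-binding GTPase that acts on intracellular pathogens, was higher by 2.12-fold. In the RNA labelled G2KO 9 of 31 were called, in both directions. Trim25, Igtp, Parp14, Ifit3, Ifi47, Ifit1 and Oasl2 were lower, from 5.88-fold for Trim25 to at least 2.15-fold for Oasl2, and the interferon-inducible p200 genes Ifi204 and Ifi205 were higher, by 6.82-fold and 3.57-fold. No gene was called in both comparisons, where 1.7% of the 24143 probes that entered both were.

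Of the 38 genes, 33 entered the G1KO comparison. 1 was called higher (3.03%) and 1 lower (3.03%), against 1.99% higher and 3.8% lower of the 25531 probes that entered. These shares are near the background. With median centring of the arrays in place of loess neither gene was called, although the means were about as large, at -1.61 for Isg20 and 1.15 for Gbp2. The individual arrays lay further apart there, at -0.89 and -2.33 for Isg20 and at 1.596 and 0.70 for Gbp2, and the median SD of a pair over all probes was 0.79, against 0.082 with loess. With the scanner software's own ratio 5 were called lower in G1KO. Of the 33 genes, 22 were below 0 on both arrays (66.7%), against 40.8% of all probes, 6 were above 0 on both and 5 had a different sign on each. Their median ratio was -0.34, against -0.0023 for all probes, and the median size of the ratio was 0.46, against 0.21. Of the 38 genes, 31 entered the G2KO comparison. 2 were called higher (6.45%) and 7 lower (22.6%), against 2.31% and 4.06% of 25423 probes. 18 of the 31 were below 0 on both arrays (58.1%), against 42.7% of all probes, and 11 were above 0 on both. Their median was -0.12, against -0.0071 for all probes, and the median size was 0.38, against 0.24. Because a gene enters through the genotype in which it is brighter, the values were also taken over all 38 genes without that filter. The same genes were then called, and the medians were -0.23 and -0.052. The genes were read by their brightest probe, while the values for all probes include dimmer ones, whose ratios the processing draws toward 0. Genes of 1 pathway are not independent, and these counts describe 1 pair of cultures each.

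**Figure D2:**
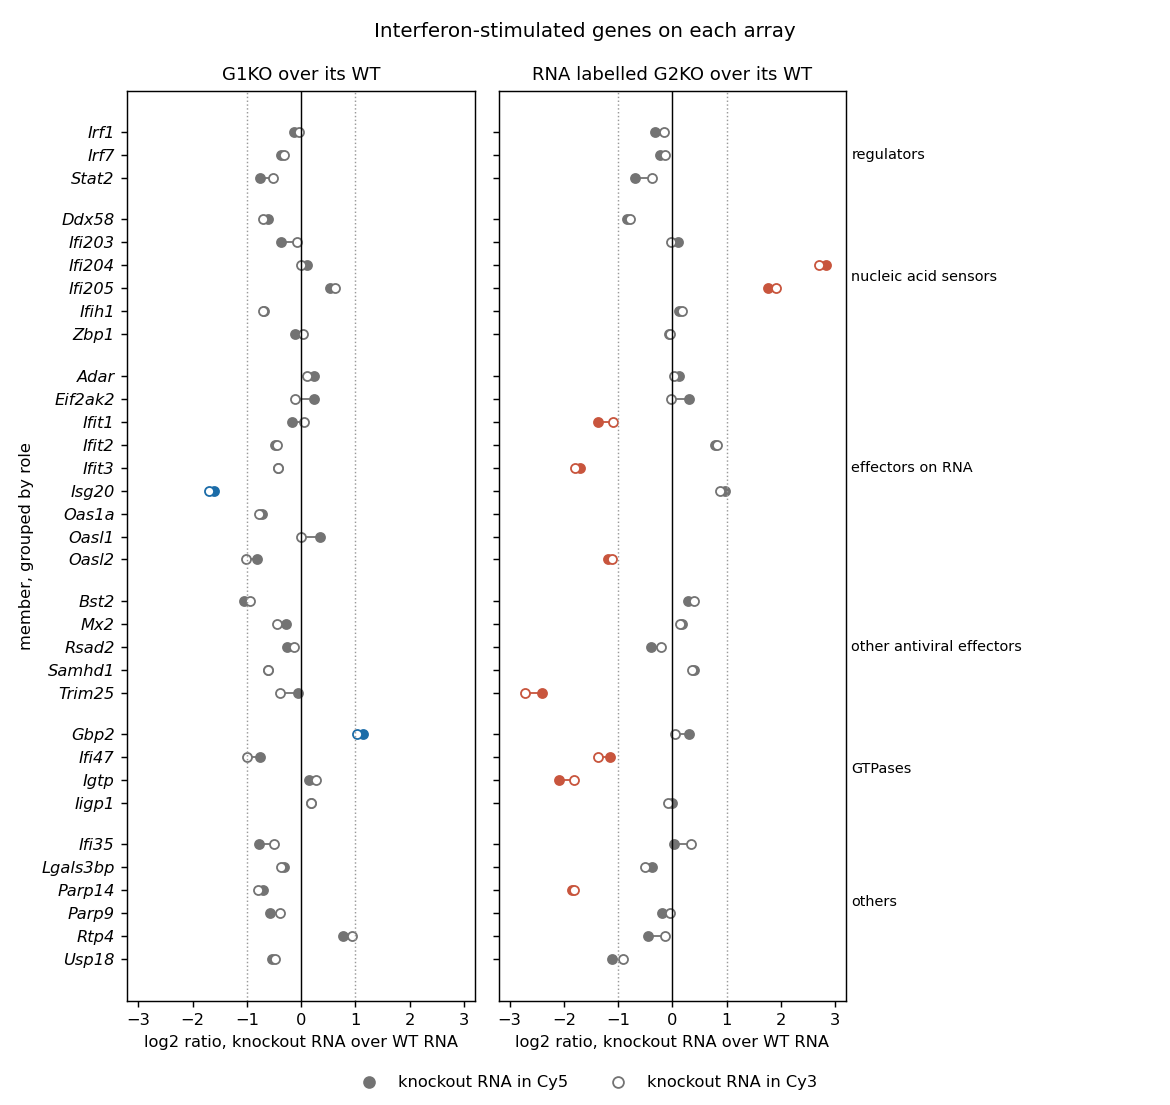
Log2 ratio of knockout over WT RNA of each member that entered a comparison, grouped by role, with G1KO on the left and the RNA labelled G2KO on the right. Filled points have the knockout RNA in Cy5 and open points have it in Cy3, coloured points were called, and dotted lines mark ratios of -1 and 1. Only Isg20 and Gbp2 lie beyond the lines on both arrays in G1KO, against 9 genes in the RNA labelled G2KO, from Trim25 at -2.56 to Ifi204 at 2.77.

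Of the regulators on the list, Stat2, Irf7 and Irf1 had a probe of their name, and none of these was called. Stat2, the transducer of type I interferon, had ratios of -0.76 and -0.52 on the 2 arrays of the G1KO pair and -0.70 and -0.38 on those of the G2KO pair. Irf7, the factor that amplifies the interferon alpha response, had means of -0.34 ± 0.046 and -0.18 ± 0.058. For the RNA labelled G2KO, where it was not well above background, it was at least 1.14-fold lower. Irf1, which is induced by interferon gamma, had means of -0.084 ± 0.071 and -0.24 ± 0.11. Thus all 3 were below 0 on all 4 arrays. The probe of Irf9, the DNA-binding subunit of the complex with Stat2, had means of -0.22 ± 0.11 and -0.41 ± 0.061.

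Of the 6 nucleic acid sensors, 2 were called in the RNA labelled G2KO, both higher and both of the p200 family, and 0 in G1KO. Ifi204 (chromosome 1, 175585909 to 175585968, minus strand, build mm8) encodes a DNA sensor of the p200 family. Its ratios were 2.84 and 2.70 in the G2KO pair, a mean of 2.77 ± 0.095, and 0.10 and -0.0027 in the G1KO pair. Its level, a log2 intensity after normalisation between arrays, was 10.34 in the WT of the G1 pair, 10.39 in G1KO, 8.60 in the WT of the G2 pair and 11.37 in the RNA labelled G2KO. At this probe the RNA labelled G2KO was thus the highest of the 4 cultures and its own WT the lowest. A further probe of Ifi204 had a mean of 2.90, and the third, which was dimmer, had a mean of 0.85 and was not called. The levels of the third were 8.59 in the WT of the G1 pair and 8.92 in G1KO. In the G2 pair they were 6.41 in the WT and 7.26 in the RNA labelled G2KO, which was thus below both cultures of the G1 pair.

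Ifi205 (chromosome 1, 175851694 to 175851753, minus strand), which encodes another p200 protein, had ratios of 1.77 and 1.91 in the G2KO pair, a mean of 1.84 ± 0.098. In the G1KO pair they were 0.53 and 0.62, a mean of 0.57 ± 0.059. Its levels were 11.75 in the WT of the G1 pair and 12.33 in G1KO, against 6.87 in the WT of the G2 pair and 8.70 in the RNA labelled G2KO. At this probe the G1 pair was therefore higher than the G2 pair in either genotype. The other probes of Ifi205 did not show this difference. At one the WT of the G2 pair and both cultures of the G1 pair were not well above background. There the RNA labelled G2KO was at least 1.21-fold higher than its WT and at least 1.23-fold higher than G1KO. At the other no culture was well above background. Ifi203, of the same family, was at -0.22 ± 0.22 and 0.033 ± 0.093. The p200 genes lie side by side and are similar in sequence, and how far a probe of one also reads another was not tested.

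Ddx58, which encodes the RNA helicase sensor RIG-I, was lower in both comparisons without being called. Its ratios were -0.60 and -0.70 in the G1KO pair and -0.84 and -0.77 in the G2KO pair. Ifih1, which encodes the sensor MDA5, was at -0.69 and -0.70 in the G1KO pair and at 0.13 and 0.17 in the G2KO pair. Zbp1, a sensor of left-handed nucleic acid, had means of -0.031 ± 0.10 and -0.055 ± 0.010. Dhx58, the third helicase of the RIG-I family, was at 0.16 ± 0.0086 and 0.018 ± 0.054.

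The effectors that act on RNA fell into several patterns. Isg20 (chromosome 7, 78790105 to 78790164, plus strand) had ratios of -1.61 and -1.69 in the G1KO pair, a mean of -1.65 ± 0.054, and 0.97 and 0.88 in the G2KO pair, a mean of 0.92 ± 0.062. Its level was 11.33 in the WT of the G1 pair, against 9.67 in G1KO, 9.64 in the WT of the G2 pair and 10.56 in the RNA labelled G2KO. The WT of the G1 pair was thus the highest, and G1KO was close to the WT of the G2 pair. The other probe of Isg20 was also called in G1KO, at -1.62.

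The Ifit genes encode proteins that bind viral RNA and block its translation. Ifit1 (chromosome 19, 34715303 to 34715362, plus strand) had ratios of -1.36 and -1.09 in the G2KO pair, a mean of -1.22 ± 0.19. In the G1KO pair they were -0.18 and 0.046. Ifit3 (chromosome 19, 34654612 to 34654671, plus strand) had ratios of -1.70 and -1.79 in the G2KO pair, a mean of -1.75 ± 0.063, and -0.43 on both arrays of the G1KO pair. Ifit2, which lies beside Ifit3, went the other way in the G2KO pair. Its ratios were 0.79 and 0.82 there, a mean of 0.80 ± 0.021, and -0.48 and -0.44 in the G1KO pair. The windows of Ifit1 and Ifit3 hold ISRE cores, as shown above, and those of Ifit2 hold the GAS letters and no ISRE core. Of the other genes called in the RNA labelled G2KO, Igtp, which was lower, and Ifi205, which was higher, hold a core. Trim25, Ifi47 and Oasl2, which were lower, had none in the window. Whether these letters bear on the direction was not tested.

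Oasl2 (chromosome 5, 115173158 to 115173217, plus strand), of the family of 2'-5' oligoadenylate synthetases, had ratios of -1.18 and -1.10 in the G2KO pair. For the RNA labelled G2KO, where it was not well above background, it was at least 2.15-fold lower. In the G1KO pair the ratios were -0.81 and -1.02, a mean of -0.92 ± 0.14, which was not called since 1 array was above -1. Oas1a had a mean of -0.75 ± 0.032 in G1KO, and Oasl1 0.17 ± 0.25. Neither entered the G2KO comparison, and Oas2 and Oas3 entered neither. Eif2ak2, the kinase that stops translation in response to double-stranded RNA, and Adar, the enzyme that edits adenosine in such RNA, had means between 0.063 and 0.18 in both comparisons.

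Among the other antiviral effectors, Trim25 had the largest fall of the list in the RNA labelled G2KO. Trim25 (chromosome 11, 88835981 to 88836040, plus strand) encodes the ubiquitin ligase that activates RIG-I. Its ratios were -2.40 and -2.71 in the G2KO pair, a mean of -2.56 ± 0.22, and -0.064 and -0.39 in the G1KO pair. Its level was 8.87 in the RNA labelled G2KO and between 11.42 and 12.13 in the other 3 cultures, so that this RNA stood below the rest. The other probe of Trim25 was also called lower, at -1.03. At that probe the WT of the G2 pair was itself lower than the WT of the G1 pair, with a log2 difference of -1.29.

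Bst2, which encodes the tetherin that holds budding virus at the cell surface, had ratios of -1.06 and -0.95 in the G1KO pair, with an SD of 0.077, just outside the rule for a call. In the G2KO pair they were 0.29 and 0.40. Samhd1, the enzyme that depletes nucleotides needed by viruses, was at -0.60 ± 0.0018 in G1KO, with 0.38 ± 0.021 in the RNA labelled G2KO. Its other probe, which was dimmer, had means of -0.24 ± 0.14 and -0.12 ± 0.095. Mx2 was at -0.36 ± 0.11 and 0.16 ± 0.034. Rsad2, which encodes viperin, was at -0.19 ± 0.090 in G1KO. For the RNA labelled G2KO, where it was not well above background, it was at least 1.23-fold lower. Its other probes entered neither comparison. Mx1 entered neither comparison.

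Of the 5 interferon-inducible GTPases, which guard against intracellular pathogens, 4 entered each comparison. 1 was called in G1KO, higher, and 2 in the RNA labelled G2KO, both lower. Gbp2 (chromosome 3, 142575141 to 142575200, plus strand) had ratios of 1.14 and 1.03 in the G1KO pair, a mean of 1.09 ± 0.073, and 0.32 and 0.058 in the G2KO pair. Its level was 7.34 in the WT of the G1 pair, 8.43 in G1KO, 9.23 in the WT of the G2 pair and 9.42 in the RNA labelled G2KO, so the WT of the G1 pair was the lowest of the 4. Igtp (chromosome 11, 58023620 to 58023679, plus strand) had ratios of -2.09 and -1.81 in the G2KO pair, a mean of -1.95 ± 0.20, and 0.14 and 0.28 in the G1KO pair. Ifi47 (chromosome 11, 48940094 to 48940153, plus strand) had ratios of -1.15 and -1.37 in the G2KO pair, a mean of -1.26 ± 0.16. In the G1KO pair they were -0.76 and -1.01, a mean of -0.88 ± 0.18, so Ifi47 was below 0 on all 4 arrays. With median centring it was not called, with ratios of -0.81 and -1.70, although the mean was -1.26 there too. Iigp1 was at 0.18 ± 0.0088 and -0.049 ± 0.055, and Gbp4 entered neither comparison.

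The last group held genes of ubiquitin-like and other functions. Parp14 (chromosome 16, 35752653 to 35752712, minus strand), a mono-ADP-ribosyltransferase, had ratios of -1.84 and -1.82 in the G2KO pair, a mean of -1.83 ± 0.016, and -0.71 and -0.79 in the G1KO pair. Of its other probes, one had a mean of -0.67 in the G2KO pair and was not called, and the other did not enter. Usp18, which removes Isg15 from proteins and damps interferon signalling, had ratios of -1.11 and -0.92 in the G2KO pair, just outside the rule, and a mean of -0.50 ± 0.034 in G1KO. Parp9 had means of -0.48 ± 0.13 and -0.12 ± 0.11, and Lgals3bp -0.34 ± 0.036 and -0.44 ± 0.082. Rtp4 was at 0.85 ± 0.11 in G1KO, with -0.30 ± 0.23 in the RNA labelled G2KO, and Ifi35 at -0.64 ± 0.19 and 0.19 ± 0.23. Ifi44 entered neither comparison.

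Of the 38 genes, 31 entered both comparisons, 5 entered neither, and 11 were called in either. Of the 31, 13 were below 0 on all 4 arrays (41.9%), against 17.1% of all probes that entered both, and 3 were above 0 on all 4 (9.68%), against 16.4%. A further 10 had one sign on both arrays of a pair and the other sign on both arrays of the other pair (32.3%), against 35.8% of all probes. The comparisons shared no culture, but the 4 arrays shared a slide and a scan.

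**Figure D3:**
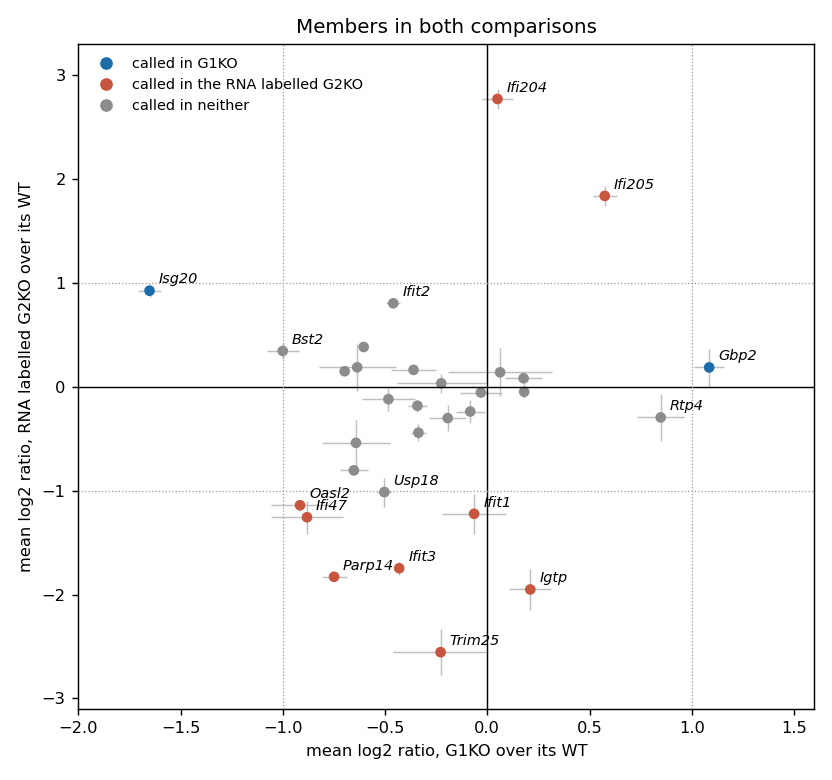
Mean log2 ratio of the 31 members that entered both comparisons, G1KO on the x axis and the RNA labelled G2KO on the y axis. Bars show the SD of each dye-swap pair, a technical spread, and dotted lines mark -1 and 1. No point lies beyond the lines on both axes, with Isg20 at -1.65 and 0.92 and Trim25 at -0.23 and -2.56.

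The 2 WT cultures also differed from each other. The WT of the G2 pair was compared with the WT of the G1 pair within each dye, on levels normalised between arrays. Of 33 genes that entered, 3 were called higher and 9 lower in the WT of the G2 pair, against 5.26% higher and 5.74% lower of 26026 probes. Their median size of difference was 0.65, against 0.31 for all probes. Ifi205 differed most, by -4.73 in Cy3 and -5.05 in Cy5, so that it was 29.6-fold lower in the WT of the G2 pair. Ifih1 was lower by a log2 difference of -2.07 ± 0.095, Ifi204 by -1.74 ± 0.037 and Isg20 by -1.69 ± 0.035. At the other probe of Ifih1, not well above background in the WT of the G2 pair, the difference was -0.47 and was not called. Oas1a and Oasl1 were not well above background in the WT of the G2 pair and were at least 2.57-fold and 2.45-fold lower. Oasl2, Samhd1 and Lgals3bp were also lower, by 2.35-fold, 2.17-fold and 2.16-fold, although the other probe of Samhd1 had a log2 difference of 0.089. Ifit3, Gbp2 and Rtp4 were higher, by 4.01-fold, 3.70-fold and 2.58-fold. Thus for Isg20 and Gbp2, the called genes of the G1KO comparison, the difference between the WT cultures (-1.69 and 1.89) was as large as or larger than that between G1KO and its WT (-1.65 and 1.09), and had the same direction. Read by the brightest probes, this also held in size for 3 of the 9 genes called in the RNA labelled G2KO. For Ifit3 the difference between the WT cultures was 2.002, against -1.75 for the RNA labelled G2KO over its WT. The level of Ifit3 was 10.43 in the WT of the G2 pair and between 7.997 and 8.68 in the other 3 cultures, so it was this WT that stood apart. For Ifi205 the values were -4.89 and 1.84, and for Oasl2 -1.23 and -1.14.

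**Figure D4:**
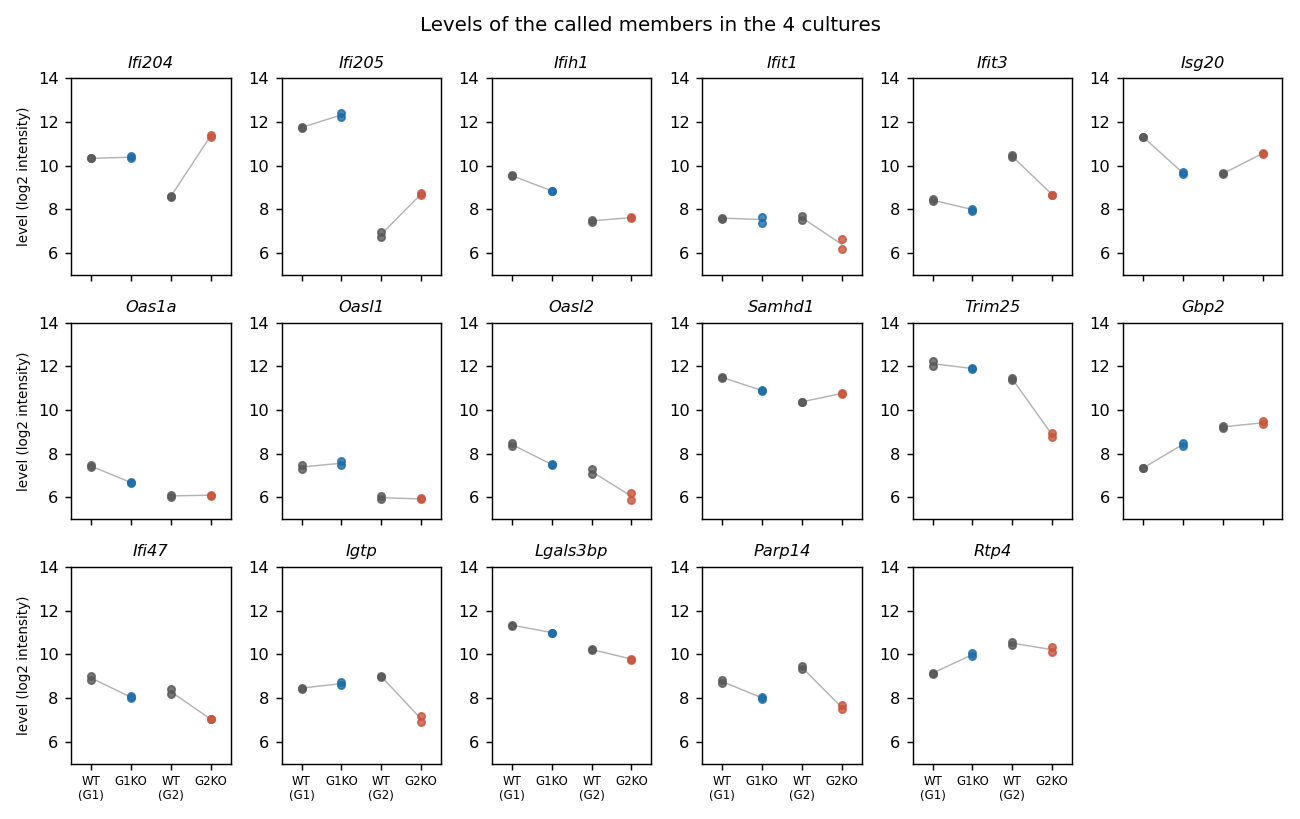
Level (log2 intensity after normalisation between arrays) of the 17 members called in a knockout comparison or between the WT cultures, in the 4 cultures. Points are the 2 arrays of each culture, grey for WT, blue for G1KO and red for the RNA labelled G2KO, and lines join the means within a pair. Levels are comparable within a gene and not between genes, and Ifi205 shows the widest gap, with 11.75 in the WT of the G1 pair and 6.87 in that of the G2 pair.

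Markers of other cells and of fibroblasts moved between the same cultures. Both cultures of the G1 pair had all 9 mesothelial markers well above background. Their summed intensity was 250047 to 288992 on the 2 arrays of the WT, against 57256 to 61907 in G1KO. In the G2 pair the sums were 1901 to 1970 in the WT and 3976 to 4303 in the RNA labelled G2KO, and Wt1, Upk3b, Upk1b, Gpm6a, Lrrn4 and Krt8 were not well above background in either. In the G1KO comparison 7 of the 9 were called lower and 1 higher. In the RNA labelled G2KO, 6 of 10 fibroblast markers were called lower, among them Pdgfra at -4.63 ± 0.087 and Thy1 at -3.22 ± 0.18, and the summed intensity was 318786 to 473557 against 828332 to 853323 in its WT. In G1KO the summed intensity of the fibroblast markers was also lower, at 387182 to 530709.5 against 660416 to 701918.5 in its WT. Of these 10 markers, 1 was called higher there and 1 lower. The part of the cell type markers in the ISG differences was not tested. In bulk RNA, fewer cells of a type and less RNA per cell cannot be told apart.

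The other genes of the pathway were taken from a list of 79, of which 73 had a probe and 56 entered the G1KO comparison. 1 was called higher and 7 lower there. 55 entered the G2KO comparison, with 4 called higher and 9 lower, beside the shares for all probes given above. Of the ligands, 9 had a probe, among them Ifnb1, Ifng and 4 interferon alpha genes, and none entered either comparison. The receptor subunits Ifnar1 and Ifnar2 of type I interferon were at 0.11 ± 0.099 and -0.24 ± 0.14 in G1KO. They were at -0.34 ± 0.12 and 0.14 ± 0.14 in the RNA labelled G2KO, and neither was called. Ifngr2, a subunit of the interferon gamma receptor, was called lower in the RNA labelled G2KO, at -1.59 ± 0.10. Ifnlr1, the interferon lambda receptor, was called lower in G1KO, at -1.23 ± 0.27, but higher in the RNA labelled G2KO, at 1.51 ± 0.15. Its partner Il10rb was lower in G1KO, at -1.07 ± 0.063.

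Among the signalling proteins, Stat3 was called lower in the RNA labelled G2KO, at -1.30 ± 0.098, and so was Tlr4, the receptor for bacterial lipopolysaccharide, at -1.70 ± 0.050. Of the inhibitors, Socs1, which blocks the Jak kinases and is itself induced by interferon, had ratios of 1.13 and 1.24 in the G1KO pair and 1.09 and 1.11 in the G2KO pair. It was called higher in both comparisons. The phosphatase Ptpn6 was called higher in the RNA labelled G2KO, at 1.19 ± 0.12.

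Of the further targets of interferon, Ifi27 and Ifi30 were called lower in both comparisons. Ifi27 (D12Ertd647e in the scanner files) had means of -1.16 ± 0.0022 and -3.72 ± 0.20, and Ifi30, a lysosomal thiol reductase used in antigen presentation, -1.24 ± 0.061 and -2.04 ± 0.11. Ifi27l2a, which the scanner files call Ifi27, was called lower in G1KO, at -3.47 ± 0.075, against -0.61 ± 0.066 in the RNA labelled G2KO. The nuclear body proteins Sp100 and Sp110 were called lower in G1KO, at -1.17 ± 0.018 and -1.32 ± 0.087, and did not enter the other comparison. In the RNA labelled G2KO, Uba7, which activates Isg15, was lower at -1.19 ± 0.047, and the GTPases Irgm2 and Gbp3 at -1.29 ± 0.12 and -1.22 ± 0.072. Isg15 itself was at -0.13 ± 0.16 in G1KO, with -0.79 ± 0.043 in the RNA labelled G2KO. Ifi202b, a p200 gene that lies between Ifi204 and Ifi205, was called higher in the RNA labelled G2KO, at 2.40 ± 0.072.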

How the data were processed

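The authors hybridised RNA of a knockout and a WT culture to Agilent 2-colour mouse arrays and read them with Agilent Feature Extraction (10.5.1.1 per the file headers, 9.1 in the submitters' processing notes). The deposited values per spot are linear intensity, not normalised, and a log10 ratio of Cy5 over Cy3 that the authors' software made after its background subtraction and dye normalisation. The deposited series table holds the same log10 ratio turned to knockout over WT (r of 0.999999 in size across spots). The scanner's p-value of that ratio was not used. Intensity was processed in limma 3.58.1 (R 4.3.3) with normexp background correction (offset 50, which draws the ratios of dim probes toward 0) and loess within each array, without control spots and outlier-flagged spots (114 to 203 per array). The mean of each dye-swap pair was taken as 1 value, since both arrays hold the same 2 RNAs. No spot was saturated. Precision is limited by the number of arrays. Levels were normalised between arrays by Aquantile. An "at least" fold sets the brighter culture's mean level against the higher of the dim probe's own level and the lowest level well above background on each array, and is open to dye bias.

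Probes were named as in the scanner files, with positions on build mm8. Of the brightest probes of the 38 genes, 35 carried an accession that RefSeq gives the same symbol, and the accessions of the other 3 were not in the RefSeq table used here. The other pathway genes and markers were matched by symbol or accession. The call rule was run on simulated data first. Members called in a knockout comparison or between the WT cultures were described on each array, the rest by means or counts, and pathway genes where called, except some that are counted but not reported here by name. Isg15, Ifnar1 and Ifnar2 were named outside that rule, after their values were seen. The members, the gene lists and the rules were chosen with earlier results of these data known. Alternatives covered background correction, normalisation, filters, thresholds, single arrays and the choice of probe.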

Additional observations from a re-analysis of the deposited data

Results flagged for a closer look

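The genes below had one sign on both arrays of the G1KO pair and the other sign on both arrays of the G2KO pair. The difference between the comparisons was not tested, since each had 1 culture per genotype. It is given as the log2 ratio in the RNA labelled G2KO minus that in G1KO. For Isg20 it was 2.58, from -1.65 to 0.92. For Igtp it was -2.16, from 0.21 to -1.95. For Bst2 it was 1.35, for Ifit2 1.26 and for Rtp4 -1.14. For Ifi35 it was 0.82 and for Ifih1 0.85 at the brightest probe, where the other probe of Ifih1 did not enter the G2KO comparison. For Samhd1 it was 0.99 at the brightest probe, but its other probe was below 0 on both arrays of each pair. For Mx2 it was 0.52 and for Iigp1 -0.23, where the ratios were small in both comparisons. Among the other pathway genes, the difference was 2.74 for Ifnlr1, which was called in both comparisons in opposite directions, and -1.70 for Gbp3.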

How the results depend on the processing

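The 23 ratios and differences of called genes kept their direction in all 192 recalculations under the alternatives run. Of the 192, 54 moved by at least the SD of the value in the main setting. The call rule asks for the same sign on both arrays or in both dyes, so single arrays or dyes could not reverse the direction. The filters on dim probes leave the ratio of a probe unchanged, so they could not reverse it either. In G1KO, where 1 gene was called higher and 1 lower, median centring in place of loess gave 0 and 0, with mean ratios of -1.61 for Isg20 and 1.15 for Gbp2, close to those with loess, and a wider spread between arrays. The scanner software's ratio and the series table gave 5 lower (Irf7, Isg20, Mx2, Oas1a and Oasl2), and the single arrays gave 2 with knockout RNA in Cy5 and 3 in Cy3. A 1.5-fold threshold gave 2 higher and 9 lower in G1KO and 4 higher in the RNA labelled G2KO, and a 4-fold threshold 0 and 0 in G1KO and 1 and 1 (Ifi204 and Trim25) in the other. The median over all detected probes of a gene left 1 higher there, Ifi204, where the other detected probe of Ifi205, dim in the WT, had a ratio of 0.27. Genes called in both comparisons were 0 in each direction. The scanner's ratio and the series table gave 2 in the same direction and 1 in opposite directions, 1.5-fold gave 4 and 1, and the array with knockout RNA in Cy3 gave 2 in the same direction. The G1KO median was -0.45 without background correction, -0.49 with offset 16, -0.485 with the scanner's ratio and with the series table, -0.23 without the filter on dim probes, and -0.37 and -0.39 on the single arrays. The G2KO median, -0.12, was -0.20 on the array with knockout RNA in Cy5 and -0.087 on the other, -0.084 with median centring, -0.052 without the filter and -0.043 where both genotypes had to be well above background. The median difference between the WT cultures, -0.18, was -0.099 with 75th-percentile scaling, -0.28 without background correction, and -0.12 and -0.13 with WT RNA in Cy3 and Cy5 alone. The cause was not tested. Genes near 1 in size, such as Bst2 and Usp18, pass or miss the rule with the setting. The 5 genes that entered neither comparison have no ratio given here.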
